A study of Mus musculus with 6 samples.

Results

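The interferon regulatory factors (IRFs) are a family of transcription factors that share a DNA-binding domain with a repeat of tryptophans and bind GAAA repeats in the interferon-stimulated response element (ISRE). In microglia, IRF8 is a lineage factor, IRF5 drives inflammatory cytokine genes, and IRF3 and IRF7 switch on type I interferon genes after the sensing of nucleic acids. IRF9 belongs to ISGF3, the complex that answers type I interferon, while IRF1 answers interferon gamma and IRF2 competes with IRF1 for its sites. The 8 genes reported here (Irf1, Irf2, Irf3, Irf4, Irf5, Irf7, Irf8 and Irf9) were taken by gene symbol from the 21899 genes of the count table.

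RNA-seq of poly(A) RNA was performed on BV2, a mouse microglial cell line. The sh-TonEBP group (3 libraries) carried a lentiviral short hairpin RNA against TonEBP, the osmotic stress factor encoded by Nfat5, and the sh-NC group (3 libraries) carried a scrambled hairpin in the same kind of lentivirus. All 6 libraries come from this 1 cell line, the labels give no further treatment, and nothing says whether the libraries came from separate cultures, so that p-values measure the spread between libraries, which may be technical. Libraries held 13621188 to 16140042 counts, with sh-TonEBP library 3 the smallest. Nfat5, the targeted gene, had 244, 291 and 379 CPM (counts scaled to a common library size by TMM) in sh-TonEBP cells, against 618, 772 and 617 CPM in sh-NC cells, a log2 fold change of -1.14 ± 0.16 (SE, edgeR adjusted p = 0.00016). Library 3 of sh-TonEBP thus kept the most Nfat5 transcript of its group.

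The microglial label was checked with 16 marker genes, of which 10 were under 1 CPM in all 6 libraries. P2ry12 and C1qa had no count in any library, and Spi1, which encodes PU.1, the usual DNA-binding partner of IRF4 and IRF8, had 0, 0 and 2 counts in sh-TonEBP cells against 2, 0 and 1 counts in sh-NC cells. The general myeloid and leukocyte genes Ptprc, Itgam, Aif1 and Tyrobp had at most 3 counts in any library. Most of these markers thus do not bear out the microglial label. Among the tested markers, Tmem119 rose (log2 fold change 1.36), and Cd68 (-1.59) and Mertk (-0.73) fell. The summed level of the 16 markers was 85.9 to 98.0 CPM in sh-TonEBP cells and 82.4 to 89.6 CPM in sh-NC cells. Some fibroblast markers were far more abundant. The 13 markers summed to 2656 to 3015 CPM in sh-TonEBP cells, against 1222 to 1287 CPM in sh-NC cells. Most of this was Col3a1 (mean 1372 CPM in sh-TonEBP cells, 342 in sh-NC cells), Fn1 (665 and 336) and Col5a1 (492 and 419). Another 4 were under 1 CPM in all 6 libraries. Of 9 tested, 7 (77.8%) were higher and 0 lower, where 26.3% of all tested genes were higher and 26.2% lower. The higher ones included the matrix genes Col3a1 (log2 fold change 2.01), Lum (3.62), Dcn (4.39, at 2.89 against 0.131 CPM) and Fn1 (0.98). Col5a1 (0.23) and Col1a2 (-0.59) did not pass. Of 12 epithelial markers, 8 were under 1 CPM in all 6 libraries and 4 were tested. Krt8 was higher (1.08), Grhl2 was lower (-2.04), and Krt18 (0.31) and Krt7 (0.81) did not pass the test. The sum was 1201 to 1508 CPM in sh-TonEBP cells against 630.4 to 773.5 CPM in sh-NC cells. Most of it was Krt8, with means of 1198 CPM in sh-TonEBP cells and 565 CPM in sh-NC cells. Of 13 lymphocyte and plasmacytoid markers, 2 were tested: Bst2 was higher (1.42) and Tcf4, at -0.16, did not pass. Bst2 is also in the list of ISGF3, IRF3 and IRF7 targets below. The part of these marker differences in the results on the Irf genes was not tested, and in bulk RNA fewer cells of a type cannot be told apart from less RNA per cell.

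The family split. Irf7, Irf1 and Irf9 were higher in sh-TonEBP cells, Irf8 and Irf5 were lower, Irf2 and Irf3 did not pass the test, and Irf4 was too low to test. Thus 3 of the 7 tested members were higher and 2 were lower at an adjusted p under 0.05 (edgeR's quasi-likelihood test with Benjamini-Hochberg adjustment over 11943 genes), where 26.3% of all tested genes were higher and 26.2% were lower. At the cutoffs of the study, an absolute log2 fold change over 1 with an unadjusted p under 0.05, 1 member was higher (Irf7) and 2 were lower (Irf5 and Irf8), against 6.38% and 8.53% of tested genes. The CPM of the groups did not overlap for 5 members, as for 62.7% of tested genes. The median log2 fold change of the 7 members was 0.17, beside 0.00072 over all tested genes. As 52.5% of tested genes passed the test in this knockdown, the count of calls is not read as a result about the family, and the values below concern which members moved and how far.

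**Figure D1:**
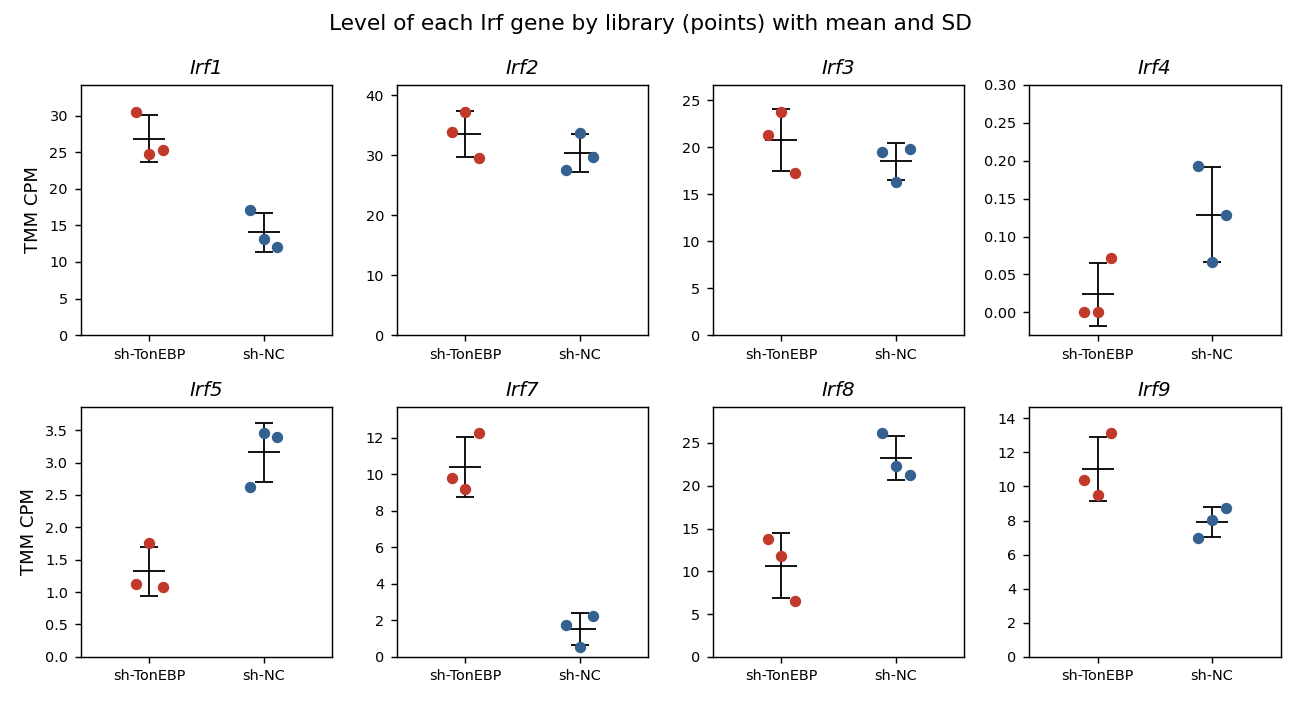
Level of the 8 Irf genes in TMM-scaled CPM (vertical axis, one scale per gene) in the 3 sh-TonEBP libraries (red, left) and the 3 sh-NC libraries (blue, right). Points are libraries, from 1 on the left to 3 on the right within a group, and bars give the mean and SD. Irf1, Irf7 and Irf9 lie higher and Irf5 and Irf8 lower in sh-TonEBP cells with no overlap, while Irf2 and Irf3 overlap, and the Irf4 bar runs below 0 because its SD exceeds its mean.

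Irf7, the interferon-inducible factor that amplifies type I interferon production, changed most within the family. It had 156, 146 and 170 counts in sh-TonEBP cells, against 27, 8 and 35 counts in sh-NC cells. The lowest sh-TonEBP library lay far above the highest sh-NC library. In CPM this was 10.4 ± 1.62 in sh-TonEBP cells and 1.5 ± 0.88 in sh-NC cells (SD, n = 3 each). The fold change was 6.86 (log2 2.78 ± 0.34 SE, edgeR adjusted p = 7.5e-05), and 0.243% of tested genes had a larger log2 fold change. The sh-NC libraries scattered by 58.5% of their mean, where counting alone gives 20.7%. Without sh-NC library 2, which held the 8 counts, the log2 fold change was 2.39 and remained past the test.

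Irf9, the DNA-binding subunit of ISGF3, was higher by a small margin. It had 10.4, 9.50 and 13.1 CPM in sh-TonEBP cells, against 6.99, 8.02 and 8.76 CPM in sh-NC cells. The groups did not overlap, but the lowest sh-TonEBP library and the highest sh-NC library lay close together. The log2 fold change was 0.47 ± 0.18 (SE, edgeR adjusted p = 0.047). This call was lost in 7 of 13 alternative settings, with adjusted p from 0.032 to 0.17, and without sh-TonEBP library 3, which had the highest level, the log2 fold change was 0.33 (edgeR adjusted p = 0.17). The log2 ratio of Irf7 to Irf9 counts is not corrected for length. It was -0.08 ± 0.03 in sh-TonEBP cells and -2.59 ± 1.08 in sh-NC cells (SD, n = 3 each). Counting alone scatters Irf7 by 7.97% and Irf9 by 7.75% of the mean in sh-TonEBP cells. The SD of 0.03 is smaller than this counting error, so it is not read as a result. In sh-NC cells the ratio rests on Irf7 counts of 27, 8 and 35.

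Irf3, the constitutive factor that is activated by phosphorylation rather than by synthesis, did not pass the test. It had 21.3, 23.8 and 17.2 CPM in sh-TonEBP cells, against 19.5, 16.2 and 19.8 CPM in sh-NC cells. The libraries overlapped, with sh-TonEBP library 3 below 2 of the sh-NC libraries. The log2 fold change was 0.17 ± 0.16 (SE, edgeR adjusted p = 0.39), and its sign turned to -0.15 (adjusted p = 0.34) when a trend on transcript length and GC content was removed.

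Irf1, the interferon-induced activator of antigen presentation genes, rose. It had 30.5, 24.7 and 25.3 CPM in sh-TonEBP cells, against 17.1, 13.1 and 12 CPM in sh-NC cells. All sh-TonEBP libraries lay above all sh-NC libraries. The fold change was 1.91 (log2 0.93 ± 0.17 SE, edgeR adjusted p = 0.00063), and 7.62% of tested genes had a larger log2 fold change. Irf2, its antagonist at shared sites, had 33.8, 37.2 and 29.6 CPM in sh-TonEBP cells, against 27.5, 33.8 and 29.7 CPM in sh-NC cells. These overlapped, and the log2 fold change of Irf2 was 0.15 ± 0.14 (SE, edgeR adjusted p = 0.38). With the trend on transcript length and GC content removed, Irf2 passed the test at a log2 fold change of 0.34 (adjusted p = 0.025). Within libraries, the log2 ratio of Irf1 to Irf2 counts was -0.15, -0.59 and -0.22 in sh-TonEBP cells and -0.69, -1.37 and -1.30 in sh-NC cells. The ratio was higher in each sh-TonEBP library than in any sh-NC library.

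Irf8, the lineage factor of microglia and other myeloid cells, fell. It had 220, 187 and 90 counts in sh-TonEBP cells, against 407, 336 and 332 counts in sh-NC cells. This was 13.8, 11.8 and 6.48 CPM in sh-TonEBP cells, against 26.1, 22.3 and 21.2 CPM in sh-NC cells. The groups did not overlap, and sh-TonEBP library 3 was the lowest. The level in sh-NC cells was 2.16-fold that in sh-TonEBP cells (log2 fold change -1.11 ± 0.23 SE, edgeR adjusted p = 0.0019), and 6.75% of tested genes had a lower log2 fold change. The sh-TonEBP libraries scattered by 35.3% of their mean, where counting alone gives 7.77%. Without sh-TonEBP library 3 the log2 fold change was -0.86 (edgeR adjusted p = 0.0020). Library 3, which kept the most Nfat5 transcript of its group, had both the lowest Irf8 and the highest Irf7. This is 1 library, also the smallest by counts, and a link between these values was not tested.

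Irf5, which acts after MyD88 to induce inflammatory cytokines, was scarce and fell. It had 18, 28 and 15 counts in sh-TonEBP cells, against 41, 52 and 53 counts in sh-NC cells. The groups did not overlap, at 1.32 ± 0.38 CPM in sh-TonEBP cells and 3.16 ± 0.46 CPM in sh-NC cells (SD, n = 3 each). The log2 fold change was -1.24 ± 0.30 (SE, edgeR adjusted p = 0.0047). Irf4, a factor of lymphocytes and of some activated macrophages, had 0, 0 and 1 counts in sh-TonEBP cells, against 3, 1 and 2 counts in sh-NC cells. Both groups were at or under the limit of 3 counts that a count of 0 allows, which is 0.186 to 0.220 CPM in the sh-TonEBP libraries and 0.193 to 0.196 CPM in the sh-NC libraries for counting error only, so no difference in Irf4 was detectable at this depth.

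**Figure D2:**
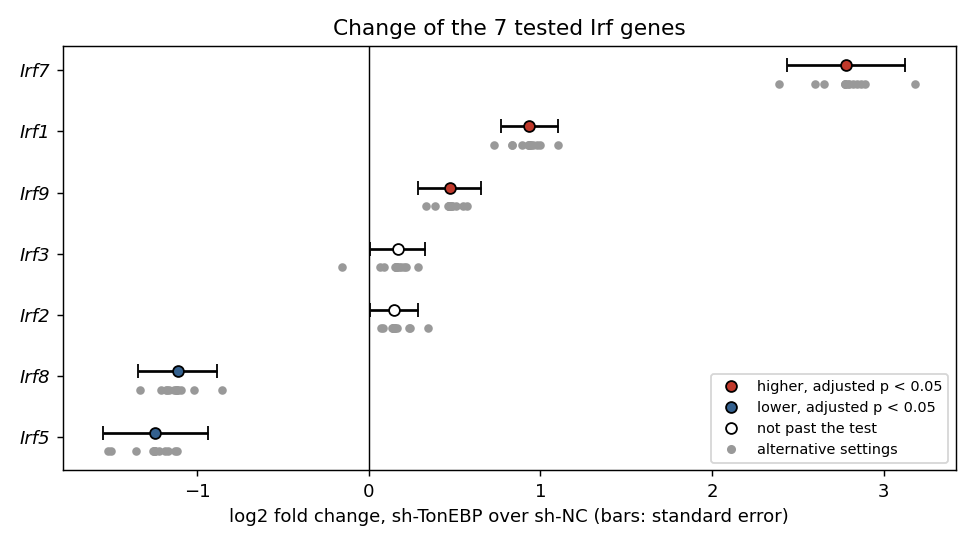
Log2 fold change of the 7 tested Irf genes (horizontal axis, sh-TonEBP over sh-NC), with the standard error as bars. Red points were higher, blue points lower and white points not past an adjusted p of 0.05, and grey points give the 13 alternative settings of each gene. Irf7 stands apart at 2.78, and Irf3 is the gene with a grey point on the other side of 0.

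Reads from overlapping genes limit some of these values, and the strand setting of the counting is not given in the sources used here. Irf5 shares 411 exon bases with Tnpo3 on the opposite strand, which had 1923, 2168 and 2018 counts in sh-TonEBP cells against 2926, 3111 and 2763 counts in sh-NC cells. Tnpo3, a nuclear import receptor, thus had many more counts than Irf5 and also fell, with a log2 fold change of -0.50 (edgeR adjusted p = 0.0031). The part of Tnpo3 reads in the Irf5 counts was not tested. On opposite strands, Irf7 shares 45 exon bases with Phrf1 (log2 fold change 0.16) and Irf3 shares 88 with Bcl2l12 (0.44). Irf9 shares 123 with Rnf31 (-0.25) on the same strand, where a strand setting could not separate their reads. None of Phrf1, Bcl2l12 and Rnf31 passed the test.

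The genes next to the Irf genes did not all move with them. Cox4i1, upstream of Irf8 and encoding a subunit of cytochrome c oxidase, rose with a log2 fold change of 1.03 (edgeR adjusted p = 8.6e-05) while Irf8 fell. Psme2, a proteasome activator subunit upstream of Irf9, rose with a log2 fold change of 1.42 (adjusted p = 8.6e-05). Prmt1, upstream of Irf3, rose (log2 fold change 0.73), as did Kcp, upstream of Irf5 (0.84), and Rassf7, downstream of Irf7 (0.54). Cdhr5, upstream of Irf7, had a log2 fold change of 0.74 (adjusted p = 0.053) and did not pass the test. Exoc2, downstream of Irf4, fell (-0.35), while Dusp22 near Irf4 (-0.15), Scaf1 near Irf3 (0.17) and Foxf1 near Irf8 (0.36) did not pass. Il5, Gm12216, Enpp6, Tspan33, Gm20388 and Rec8 were too low to test.

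Levels of different members were compared per kilobase of the longest annotated transcript. In sh-TonEBP cells the order was Irf1 (12.6 ± 1.49 CPM per kb), Irf3 (10.2 ± 1.63), Irf2 (8.46 ± 0.96), Irf7 (3.21 ± 0.50), Irf8 (3.08 ± 1.09), Irf9 (2.84 ± 0.49), Irf5 (0.590 ± 0.170) and Irf4 (0.0050 ± 0.0087). Neighbours in this order overlapped between libraries except for the steps from Irf2 to Irf7, from Irf9 to Irf5 and from Irf5 to Irf4. In sh-NC cells the order was Irf3 (9.11 ± 0.96 CPM per kb), Irf2 (7.65 ± 0.81), Irf8 (6.69 ± 0.74), Irf1 (6.57 ± 1.25), Irf9 (2.05 ± 0.23), Irf5 (1.41 ± 0.20), Irf7 (0.463 ± 0.271) and Irf4 (0.0271 ± 0.0132). Here the first 4 overlapped with their neighbours and the others did not. Irf7 thus stood beside Irf8 and Irf9 in sh-TonEBP cells and below Irf9 and Irf5 in sh-NC cells. The levels depend on the length used: per kilobase of all annotated exons, those of Irf1, Irf2, Irf3 and Irf8 were lower by over 1.5 times in both groups, Irf9 (2.04 CPM per kb) stood above Irf8 (1.51) in sh-TonEBP cells, and Irf1 (3.53) stood above Irf8 (3.29) in sh-NC cells.

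As a share of the 8 genes together, Irf8 took 7.40% ± 2.14 in sh-TonEBP cells and 19.7% ± 1.43 in sh-NC cells. Irf7 took 7.93% ± 1.90 in sh-TonEBP cells and 1.36% ± 0.79 in sh-NC cells. Irf1 took 30.7% ± 2.85 in sh-TonEBP cells and 19.3% ± 2.87 in sh-NC cells (SD, n = 3 each). The summed level of the family was 41.0 ± 3.23 CPM per kb in sh-TonEBP cells and 34.0 ± 1.44 CPM per kb in sh-NC cells.

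**Figure D3:**
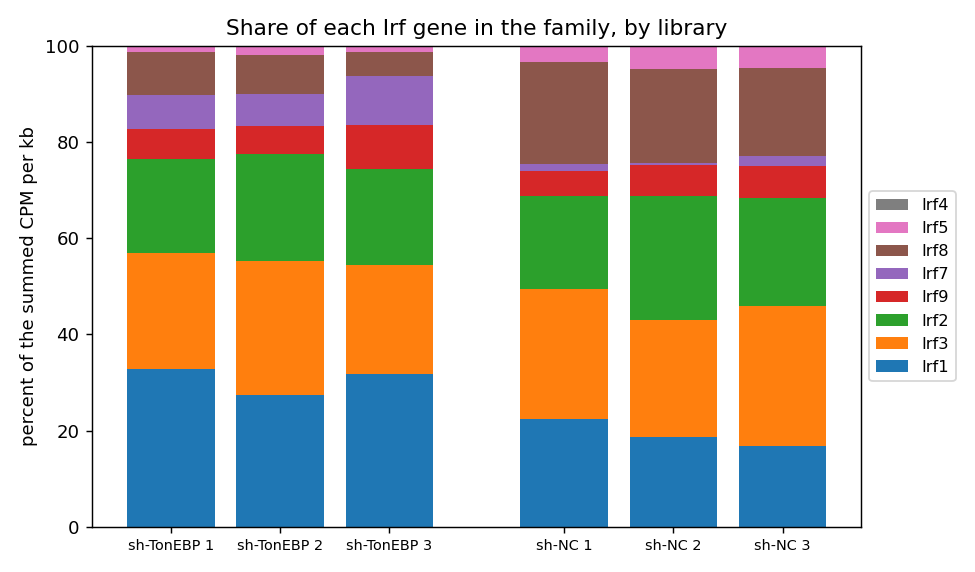
Share of each Irf gene in the summed CPM per kilobase of the 8 genes (vertical axis, percent), for each sh-TonEBP library (left) and each sh-NC library (right). The Irf8 band spans 5.01% to 9.14% in sh-TonEBP libraries and 18.3% to 21.2% in sh-NC libraries, and the Irf7 band 6.73% to 10.1% in sh-TonEBP libraries and 0.499% to 2.06% in sh-NC libraries.

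The ratio of 2 members within a library does not depend on how libraries are scaled. The log2 ratio of Irf7 to Irf8 counts was -0.49, -0.36 and 0.91 in sh-TonEBP cells, against -3.89, -5.31 and -3.23 in sh-NC cells. Each sh-TonEBP library lay above each sh-NC library, with a difference of 4.16 between the group means. This pair was taken for its opposite moves, and no test is read from it. Of the 21 pairs of tested members, 16 had log2 ratios that did not overlap between the groups. Those had the smallest p that an exact two-sided permutation test of 3 against 3 libraries allows, 0.10 (0.13 adjusted over the 21 pairs). No pair could thus pass a threshold of 0.05. The pairs reuse the 7 tested members, of which 5 did not overlap in CPM, as for 62.7% of tested genes. No share over other gene pairs was computed, so this count is not read as a result about the family. The ratio of Irf1 to Irf8 differed by 2.13 on the log2 scale, with 1.14, 1.07 and 1.96 in sh-TonEBP cells and -0.61, -0.77 and -0.82 in sh-NC cells. The pair of members that fell had overlapping ratios: Irf5 to Irf8 was -2.95 ± 0.55 in sh-TonEBP cells and -2.87 ± 0.37 in sh-NC cells.

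Promoter windows were read for the members the results turn on, from 250 bases before to 50 bases after each RefSeq start site (build GRCm38.p6). They are shown for Irf7, which rose most, and for the members whose window holds a searched motif. Irf7 lies on the minus strand at chr7:141266375-141266674, Irf1 at chr11:53769764-53770063, Irf2 at chr8:46739495-46739794 and Irf8 at chr8:120736108-120736407, the last 3 on the plus strand, and each is written 5′ to 3′ on the strand of its gene with motif matches in capitals.
Irf7: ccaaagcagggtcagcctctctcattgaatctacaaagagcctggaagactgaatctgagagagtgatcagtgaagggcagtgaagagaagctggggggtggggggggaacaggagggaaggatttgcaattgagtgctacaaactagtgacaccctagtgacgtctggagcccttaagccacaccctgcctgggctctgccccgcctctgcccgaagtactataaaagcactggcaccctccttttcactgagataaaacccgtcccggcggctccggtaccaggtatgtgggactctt
Irf1: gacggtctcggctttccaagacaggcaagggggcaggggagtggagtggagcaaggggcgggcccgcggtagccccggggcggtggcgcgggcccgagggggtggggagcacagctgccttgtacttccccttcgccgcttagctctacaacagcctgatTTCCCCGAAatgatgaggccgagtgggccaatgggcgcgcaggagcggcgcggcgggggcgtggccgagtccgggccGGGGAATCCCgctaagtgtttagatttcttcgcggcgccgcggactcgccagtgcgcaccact
Irf8: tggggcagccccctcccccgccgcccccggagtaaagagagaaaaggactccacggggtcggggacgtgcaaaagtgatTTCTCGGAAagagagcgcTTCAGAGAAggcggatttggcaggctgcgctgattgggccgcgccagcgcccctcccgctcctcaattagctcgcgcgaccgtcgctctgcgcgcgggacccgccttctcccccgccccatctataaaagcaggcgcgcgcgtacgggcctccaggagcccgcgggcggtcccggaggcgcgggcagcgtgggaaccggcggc
Irf2: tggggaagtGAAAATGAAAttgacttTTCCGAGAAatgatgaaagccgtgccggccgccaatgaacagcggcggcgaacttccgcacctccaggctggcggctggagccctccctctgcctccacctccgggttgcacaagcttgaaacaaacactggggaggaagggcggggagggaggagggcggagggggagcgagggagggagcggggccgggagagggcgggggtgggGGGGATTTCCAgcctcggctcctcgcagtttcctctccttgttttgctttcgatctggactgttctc

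Both strands were searched for the ISRE core (GAAA, any 2 bases, GAAA), the STAT site GAS (TTCNNNGAA), the TonE consensus to which TonEBP binds, and the kappaB consensus. The Irf1 window holds a GAS match at -90 to -82 from the start site and a kappaB match at -13 to -4. The Irf8 window holds 2 GAS matches, at -171 to -163 and at -153 to -145. The Irf2 window holds an ISRE core at -241 to -232, a GAS match at -224 to -216, and a TonE match at -17 to -7 that overlaps a kappaB match at -17 to -8. Irf1, which rose, and Irf8, which fell, thus both carry GAS letters. No match was found in the windows of Irf3, Irf4, Irf5, Irf7 and Irf9, nor in the second windows of Irf1, Irf8 and Irf9, which says only that these letters are not in these windows. Among 32851 windows of the same length, 3.44% hold the ISRE core, 8.30% GAS, 4.96% the TonE consensus and 8.46% the kappaB consensus.

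The genes that switch the IRF proteins on were called about as often as tested genes at large. Of 27 activators of IRF3, IRF5 and IRF7, 25 were tested, of which 7 (28%) rose, 8 (32%) fell and 10 missed the threshold (median log2 fold change 0.05), where 26.3% of all tested genes were higher and 26.2% were lower. The adaptors Sting1 (log2 fold change 0.75, edgeR adjusted p = 0.00033), Myd88 (0.83, adjusted p = 0.00040) and Mavs (0.47, adjusted p = 0.0033) rose. The adaptors Tank (-0.63, adjusted p = 0.019) and Azi2 (-0.42, adjusted p = 0.025) fell. Ikbke, an IRF3 and IRF7 kinase, fell (-0.84, adjusted p = 0.00067), as did the ubiquitin ligase Traf6 (-0.66, adjusted p = 0.0011). Tbk1, also an IRF3 and IRF7 kinase, was at -0.15 and did not pass (adjusted p = 0.27). Further kinases of the list fell, namely Chuk (-0.59), Ikbkb (-0.53) and Irak1 (-0.40), while Irak2 (0.28) and Irak4 (0.17) did not pass. Among 24 partners and coregulators, 19 were tested, of which 8 (42.1%) rose, 4 (21.1%) fell and 7 missed the threshold (median 0.05), to be read against the same shares. Irf2bp1 rose (1.09, adjusted p = 0.00011) and Irf2bp2 fell (-0.62, adjusted p = 0.0018), both being corepressors that bind IRF2, and Irf2bpl rose (0.38, adjusted p = 0.022). Stat2 (0.58), a partner of IRF9 in ISGF3, rose, as did Tcf3, a helix-loop-helix factor (0.56), while Peli1, a ubiquitin ligase of the Toll-like receptor pathway, fell (-1.03).

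Interferon genes themselves were almost without counts. Of 21 genes of type I, II and III interferons, 16 had no count in any library, the highest count was 6 (Ifna13), none was tested, and Ifnb1 had 0, 0 and 0 counts in sh-TonEBP cells against 0, 0 and 1 counts in sh-NC cells. Of 17 genes of the interferon receptors, their kinases, STATs and brakes, 10 (58.8%) rose, 1 (Ptpn2) fell and 6 missed the threshold (median 0.45), where 26.3% of all tested genes were higher and 26.2% were lower. The brakes Usp18 (2.0, edgeR adjusted p = 3.5e-05), Ptpn6 (1.09) and Socs3 (0.74) rose.

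Most of the tested targets in the lists of ISGF3 and of IRF1 were higher. Of 40 tested targets of ISGF3, IRF3 and IRF7 (45 in the table), 29 (72.5%) rose, 2 (Epsti1 and Isg20) fell and 9 missed the threshold, at a median log2 fold change of 1.3, where 26.3% of all tested genes were higher and 26.2% were lower. Oasl2, an oligoadenylate synthetase-like protein, averaged 9.15 ± 0.66 CPM in sh-TonEBP cells and 0.995 ± 0.120 CPM in sh-NC cells (log2 fold change 3.19, edgeR adjusted p = 2.2e-06). Its counts of 134, 152 and 132 in the sh-TonEBP libraries are the same as those listed for its paralog Oasl1, so the value of either is uncertain. Ifi27 (2.05), the ISG15-conjugating enzyme Ube2l6 (1.51) and Lgals3bp (1.81) followed. Of 26 tested targets of interferon gamma and IRF1 (36 in the table), 17 (65.4%) rose, 4 fell and 5 missed the threshold (median 0.87), beside the same shares of all tested genes. The proteasome genes Psme1 (1.3), Psme2 (1.42) and Psmb9 (1.64) rose, while Nos2, the inducible nitric oxide synthase, fell to 5.74 ± 1.99 CPM in sh-TonEBP cells, against 33.7 ± 4.42 CPM in sh-NC cells (log2 fold change -2.54, adjusted p = 8.8e-06). Of 27 targets of IRF8 and PU.1, 16 were under 1 CPM in all libraries and 10 were tested, of which 4 (40%) rose, 2 (20%) fell and 4 missed the threshold (median 0.78). The protease inhibitor Cst3 (1.39), Tmem119 (1.36) and the myeloid factor Cebpa (1.55) rose and Bcl6, a repressor, fell (-0.59), beside an Irf8 log2 fold change of -1.11. These lists are described by their counts, and the marker differences given above run alongside them.

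**Figure D4:**
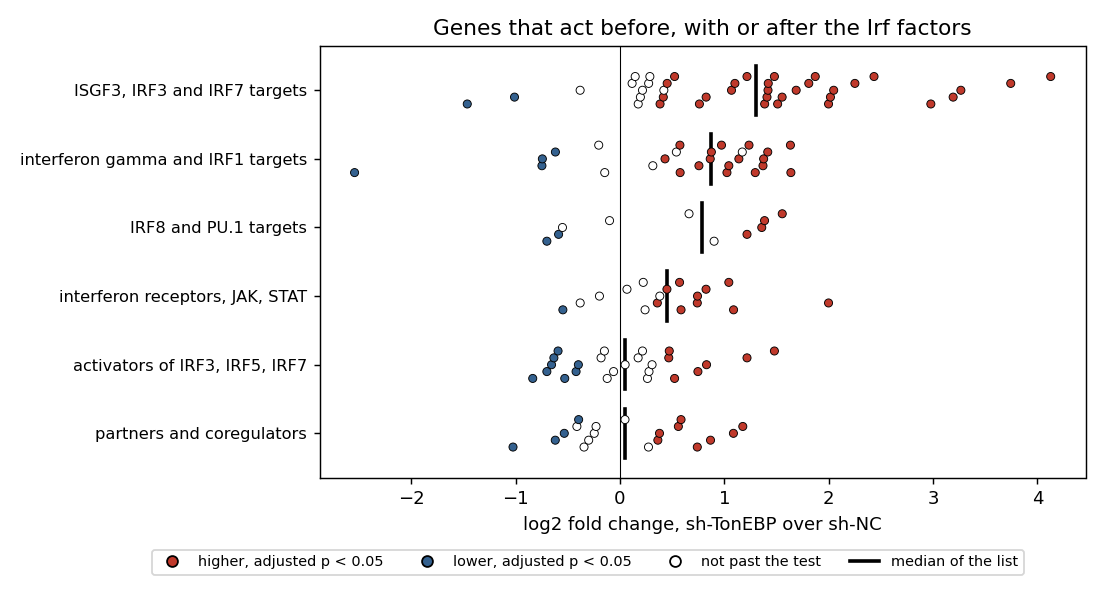
Log2 fold change (horizontal axis, sh-TonEBP over sh-NC) of each tested gene in 6 lists of genes that act before, with or after the IRFs (rows). Red points were higher and blue points lower at an adjusted p under 0.05, white points did not pass, and black bars give the median of each list. The median is 1.3 for targets of ISGF3, IRF3 and IRF7 and 0.05 for the activators and for the partners.

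Genes with the most similar profile over the 6 libraries were taken by the smallest distance of centred log2 CPM, as a description, among genes that averaged at least 1 CPM. For Irf7 these were Sohlh1 (distance 0.39), Fam107a (0.61) and Nrgn (0.90). For Irf8 they were Gramd2 (0.33), Adamts7 (0.39) and Slit1 (0.41), and for Irf5 Trmt10a (0.20), Sspo (0.21) and Chn1 (0.22). Irf1 lay nearest to Ndufs8 (0.12), Mdga1 (0.13) and Tesk1 (0.14), and Irf9 to Dph7 (0.17), D6Wsu163e (0.18) and Sned1 (0.19). For Irf2 they were Zbtb5 (0.06), Tcf7 (0.10) and Ppt1 (0.10), and for Irf3 Hebp1 (0.06), Wdr34 (0.08) and Arsa (0.08). Of these 21 genes, 0 are in the lists of activators, partners or targets above. Those lists hold only a small part of the 11943 tested genes, so this count is not read as a result.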

How the data were processed

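Poly(A) RNA of 6 BV2 libraries was sequenced, and the authors deposited raw read counts per gene as 1 table. GRCm39 is the build in the submitters' processing notes, which also list HTSeq 0.9.1, HISAT2 2.0.5, DESeq 1.30.0 and cutadapt 1.15 with no role. Neither the annotation release nor the strand setting is given in the sources used here. Gene IDs were matched to symbols for 21795 of 21899 genes, and the 104 others held 0.067% of counts. The columns of the knockdown carry a short name and were assigned to it because the other columns name the control. Not every gene in the numbered range, nor every gene that the naming rule below selects, is reported. Counts were tested in R 4.3.3 with the quasi-likelihood test of edgeR 4.0.16 (TMM scaling, filterByExpr, robust dispersion, Benjamini-Hochberg adjustment over 11943 genes), with a call at an adjusted p under 0.05. Alternatives were DESeq2 1.42.0, other scalings and low-count filters, a trend on transcript length and GC content, a replicate block and each library left out. The fit was checked on simulated counts. Lengths come from a GRCm38 annotation, so that no gene coordinates are given beside the RefSeq promoter windows. Replicate counts differed by more than sampling noise in every pair of libraries of 1 group. All 8 Irf genes, Nfat5, the genes beside or overlapping each member, the 4 genes with the smallest p per list, a few regulators fixed by name and the 3 most similar genes per tested member are named. Ifna13, Ifnb1, Oasl1, Epsti1, Isg20, Ptpn2, P2ry12 and C1qa were named after their values were seen. The same holds for Ptprc, Itgam, Aif1, Tyrobp, Col5a1, Col1a2, Tank, Azi2, Chuk, Ikbkb, Irak1, Irak2 and Irak4. The members and lists were chosen with earlier results of these data known. Depth was 13621188 to 16140042 counts per library.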

Additional observations from a re-analysis of the deposited data

How the results depend on the processing

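Irf1, Irf5, Irf7 and Irf8 kept their direction and stayed past the test in all 13 alternatives, with log2 fold changes of 0.73 to 1.10, -1.52 to -1.12, 2.39 to 3.18 and -1.33 to -0.86. Irf9 lost its call with library totals alone (0.47, adjusted p = 0.057), with DESeq2 (0.47, adjusted p = 0.068) and in 5 of the 6 fits that left out 1 library, which gave 0.33 to 0.57 (edgeR adjusted p = 0.039 to 0.17). With a trend on transcript length and GC content removed, Irf2 passed at 0.34 (adjusted p = 0.025) and Irf3 turned to -0.15 (adjusted p = 0.34). The median log2 deviation of genes with the shortest transcripts minus those with the longest (the outer quartiles) was 0.357, 0.327 and 0.153 in the sh-TonEBP libraries and -0.137, -0.464 and -0.245 in the sh-NC libraries. At the cutoffs of the study, 1 member was higher instead of 3. The replicate block changed no call of a member: 3 were higher and 2 lower, and Irf9 was at 0.47 (adjusted p = 0.040). The correlations of the deviations of libraries of the same number were 0.18, 0.056 and -0.072, and 2 of the 3 sh-TonEBP libraries correlated best with the sh-NC library of their number. The labels do not say that a number marks a shared batch. Per kilobase of all annotated exons, Irf9 (2.04 CPM per kb) stood above Irf8 (1.51) in sh-TonEBP cells, and Irf1 (3.53) above Irf8 (3.29) in sh-NC cells. Of 96 list counts recomputed without 1 library, 94 stayed within 1.5 times, and the exceptions were lower partners (7 without sh-TonEBP library 3, against 4) and lower interferon signalling genes (2 without sh-NC library 1, against 1). Depth limits Irf4 and the interferon genes most, and Irf5 and Irf7 in their lower group.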
